A study of Mus musculus with 35 samples.

Results

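The ventral brain (vB) and the mandibular prominence (MNP) of the mouse embryo were compared: 6 libraries titled CD1 vNT and 6 titled CD1 MNP, 12 of the 35 libraries of the series. Both tissues came from wild-type embryos of the outbred CD1 strain at embryonic day 11.5, with no transgene and no treatment, and each library was made from pooled tissue of several embryos, so that the 6 libraries of a tissue are separate pools. The vB tissue was taken from developing forebrain and midbrain. The series profiled polyA RNA of facial prominences, brain and limb to ask how far ciliary gene expression differs between tissues. The remaining 23 libraries, of dorsal brain (dB), maxillary prominence (MXP), frontonasal prominence and limb, entered the statistical fit, and dB and MXP serve as the nearest tissues for the genes described. Expression is given in FPKM, fragments counted relative to transcript length and library size, summed over the transcripts of a gene. Differences are vB minus MNP in mean log2(FPKM + 1), given with the standard error of the limma fit and n = 6 libraries per tissue. Genes at least 2-fold apart on that scale were called higher or lower where limma's p, adjusted by the Benjamini-Hochberg method over all tested genes, lay under 0.05. The added 1 FPKM makes the differences of scarce transcripts smaller than their true ratios.

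The ventral brain at this stage is a wall of dividing neuroepithelial progenitors, patterned by Hedgehog signals from the ventral midline, from which the first neurons leave. Notch signalling holds progenitors in the cycling state while proneural bHLH factors such as the neurogenins drive their neighbours to differentiate. The mandibular prominence is an outgrowth of the first pharyngeal arch in which mesenchyme derived from the cranial neural crest surrounds a core of muscle precursors and is covered by epithelium. Endothelin signalling and its targets of the Dlx and Hand families give this mesenchyme its lower jaw identity.

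The libraries of a tissue were not equally alike. Pearson r of log2(FPKM + 1) across genes was 0.961 to 0.989 among the MNP libraries and 0.865 to 0.977 among the vB libraries, and it was 0.811 to 0.920 between the tissues. vB replicates 1 and 5 had higher levels of surface epithelium and crest mesenchyme genes than the other vB libraries. The mean log2(FPKM + 1) over 20 epithelial markers was 1.66 and 1.68 there against 0.25 to 0.44 in the other vB libraries and 3.24 to 3.60 in MNP. Over crest mesenchyme factors it was 3.14 and 3.41, against 1.46 to 2.06 and 4.11 to 4.55. Over jaw axis genes it was 2.27 in both, against 1.08 to 1.61 and 4.28 to 4.72. The jaw factor Hand2 did not exceed 0.0705 FPKM in any vB library. vB replicate 4 stood apart from the other vB libraries (r 0.865 to 0.923) with the lowest mean over the neural progenitor and neuronal lists, although it was highest for Fabp7 (649 FPKM). In the libraries numbered 1, transcripts under 200 bases took 37.0% of all FPKM in vB and 26.6% in MNP. Counts were therefore also made without vB replicates 1, 4 and 5, and are given for lists in which the number called in a direction changed by 1.5 times or more, and for some others. vB replicates 1 and 5 were picked for their MNP-like genes and vB replicate 4 for its low neural means. Leaving them out tends to widen the differences by that choice, so larger counts without them are no independent check. MNP replicates 1, 4 and 5 stayed in those fits.

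**Figure D1:**
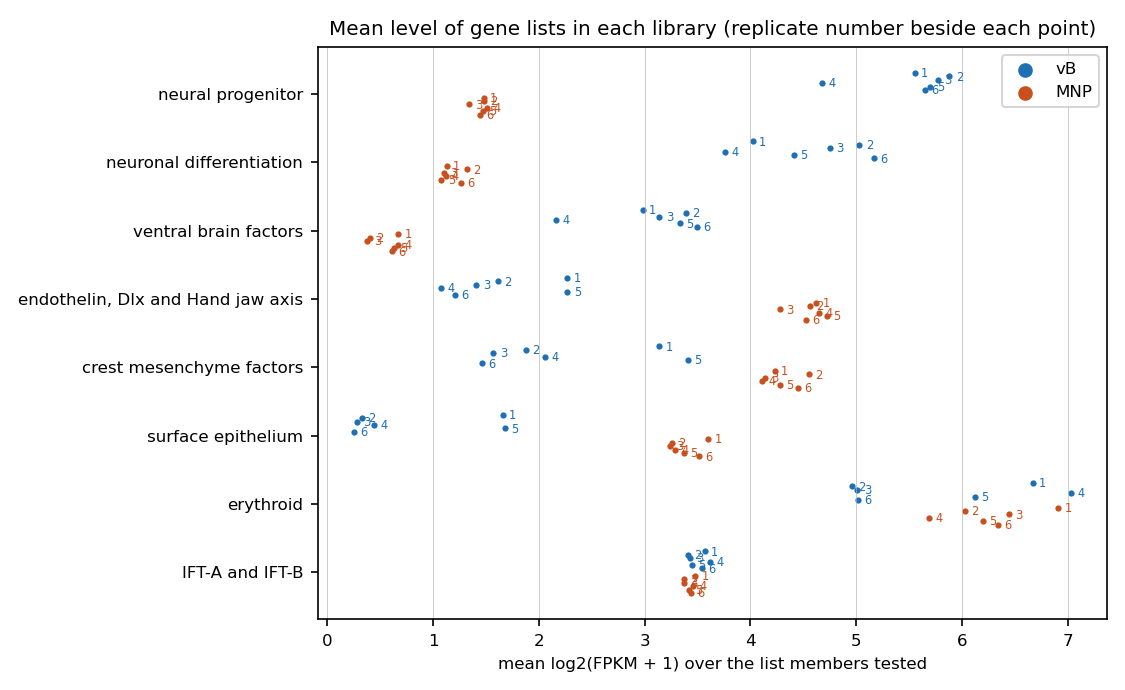
Mean log2(FPKM + 1) (horizontal axis) over the tested members of 8 gene lists (vertical axis) in each of the 6 vB (blue) and 6 MNP (orange) libraries, with the replicate number beside each point. vB replicates 1 and 5 lie nearest to MNP for jaw genes, crest mesenchyme factors and epithelial genes, vB replicate 4 is lowest for progenitor genes, and the intraflagellar transport genes of the last row overlap between the tissues.

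Of 13934 genes tested, 1052 were higher in vB (7.55%) and 811 were lower (5.82%), 13.4% in all, and for 870 (6.24%) and 678 (4.87%) of them no vB library overlapped an MNP library. Over all tested genes, called or not, the libraries of 2949 (21.2%) did not overlap. Numbers of list members with no overlap likewise count all tested members, called or not. All counts of list members below are to be read against these shares. Neural genes led the higher side, with genes of progenitors, neurons and ventral forebrain, and genes of the lower jaw, crest mesenchyme and surface epithelium led the lower side. Without vB replicates 1, 4 and 5 the counts were 1417 (10.2%) and 1110 (7.97%), of which 1022 and 784 were among those called with all libraries. With the replicate number as a block they were 1047 (7.81%) and 786 (5.86%) of 13413 genes. Within replicates 1 to 3 they were 1220 (8.76%) and 846 (6.07%), and within replicates 4 to 6, 894 (6.42%) and 727 (5.22%). Since whole tissues were sequenced, fewer cells of a type and less RNA per cell cannot be told apart in any of these values.

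**Figure D2:**
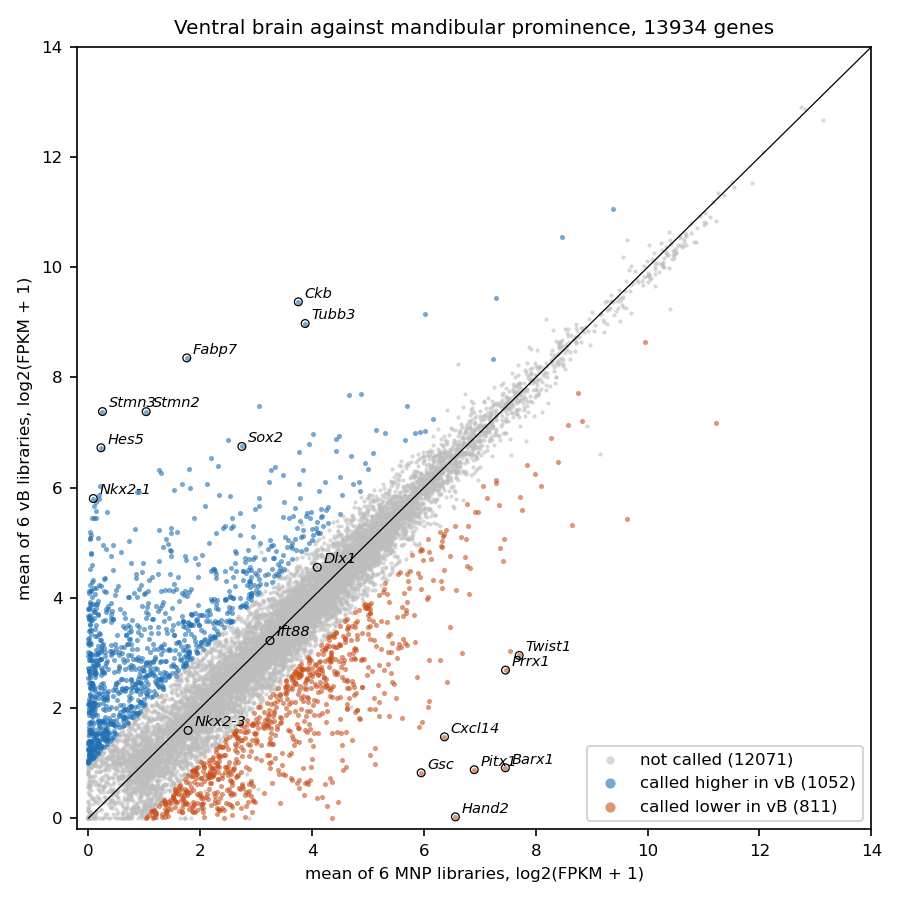
Mean log2(FPKM + 1) of the 6 vB libraries (vertical axis) against that of the 6 MNP libraries (horizontal axis) for the 13934 genes tested, coloured by call, with the line of equality. Hes5, Stmn3 and Nkx2-1 lie at the left edge, near 0 in MNP, Hand2 lies at the bottom edge, near 0 in vB, and Ift88, Dlx1 and Nkx2-3 lie close to the line.

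Among called genes whose libraries did not overlap, the 12 with the largest differences higher in vB included Stmn3, Fabp7, Hes5, Stmn2, Ina, Nkx2-1, Igfbpl1, Ckb, Celf3, Zic1 and Elavl3, from 7.13 down to 5.45. The 12 largest in the other direction were Barx1, Hand2, Pitx1, Gsc, Cxcl14, Prrx1, Twist1, Capn6, Hand1, Tbx2, Twist2 and Igf2, from -6.54 to -4.19. Promoters are shown for genes that were near 0 in the other tissue, Hes5 on mm10 chr4:154960923-154962371, the main Notch-dependent repressor of neural progenitors, and Hand2 on chr8:57320983-57324517, the bHLH factor of the distal lower jaw. Fabp7, the radial glial fatty acid binding protein on chr10:57784923-57788450, had the largest difference of the progenitor markers, and its promoter is shown too. RefSeq promoter windows (GRCm38.p6, plus strand in all 3) run from 250 bases before the start to 50 bases after it, at chr4:154960673-154960972, chr10:57784673-57784972 and chr8:57320733-57321032. Capitals mark the letters TGGGAA or its reverse complement TTCCCA, the core that Notch's partner Rbpj recognises, and TAATTA, a core of homeodomain sites, wherever either stands in the windows.
Hes5: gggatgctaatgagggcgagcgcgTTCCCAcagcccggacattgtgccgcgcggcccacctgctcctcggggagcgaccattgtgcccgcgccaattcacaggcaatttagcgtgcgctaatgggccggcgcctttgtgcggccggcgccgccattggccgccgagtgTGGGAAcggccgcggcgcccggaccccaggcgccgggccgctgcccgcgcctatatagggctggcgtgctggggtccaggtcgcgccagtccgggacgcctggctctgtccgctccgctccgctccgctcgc
Fabp7: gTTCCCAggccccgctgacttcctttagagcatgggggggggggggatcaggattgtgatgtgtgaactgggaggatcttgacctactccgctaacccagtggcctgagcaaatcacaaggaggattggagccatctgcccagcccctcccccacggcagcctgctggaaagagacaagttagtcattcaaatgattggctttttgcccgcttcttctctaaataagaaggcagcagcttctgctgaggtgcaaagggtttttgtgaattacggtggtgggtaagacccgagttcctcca
Hand2: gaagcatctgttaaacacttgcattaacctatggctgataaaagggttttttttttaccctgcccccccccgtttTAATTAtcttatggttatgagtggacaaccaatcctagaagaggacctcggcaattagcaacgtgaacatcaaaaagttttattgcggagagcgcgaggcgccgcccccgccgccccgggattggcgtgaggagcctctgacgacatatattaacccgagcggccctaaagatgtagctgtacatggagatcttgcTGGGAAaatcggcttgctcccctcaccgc
The Hes5 window holds the Rbpj letters at -226 and -82 from the start, the Fabp7 window at -249, and the Hand2 window holds them at 22 after the start and TAATTA at -175. Searched on both strands, TGGGAA stood in 25.6% of 32851 RefSeq promoter windows, in 20.6% of those of genes called higher in vB (697 of 1052 genes matched) and in 25.8% of those of genes called lower (550 of 811 matched). TAATTA, its own reverse complement, stood in 5.29%, 4.80% and 2.83% of them.

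Ckb, brain creatine kinase, on chr12:111669355-111672338, measured 560 to 727 FPKM in vB (median 696) and 9.82 to 13.9 in MNP (median 13.2) (5.62 ± 0.26, adjusted p = 5.4e-18) and was the most evenly expressed of the leading vB genes. Igfbpl1, an Igf-binding protein relative of newborn neurons, measured 26.9 to 91.7 FPKM in vB (median 63) and 0.0369 to 0.261 in MNP (median 0.139) (5.67 ± 0.26, adjusted p = 4.6e-18). Elavl3, a neuronal RNA-binding protein, measured 5.79 to 109 FPKM in vB (median 64.4) and 0.0453 to 0.174 in MNP (median 0.0811) (5.45 ± 0.43, adjusted p = 2.8e-12), with 5.79 FPKM in vB replicate 4. On the lower side, Cxcl14, a chemokine, was at 1.28 to 3.85 FPKM in vB (median 1.45) and 39 to 164 in MNP (median 85.5) (-4.89 ± 0.45, adjusted p = 8.1e-11), and Capn6, a calpain without protease activity, on chrX:143802237-143827412, at 4.65 to 15.3 FPKM in vB (median 5.67) and 164 to 211 in MNP (median 184) (-4.51 ± 0.22, adjusted p = 2.3e-17). Igf2, the fetal growth factor, had the highest MNP level of the leading genes at 692 to 1003 FPKM (median 735), against 7.53 to 155 FPKM (median 37.1) in vB (-4.19 ± 0.41, adjusted p = 4e-10). Its vB values were 151 and 155 FPKM in replicates 1 and 5 and no more than 37.9 in the other 4, all below MNP.

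**Figure D3:**
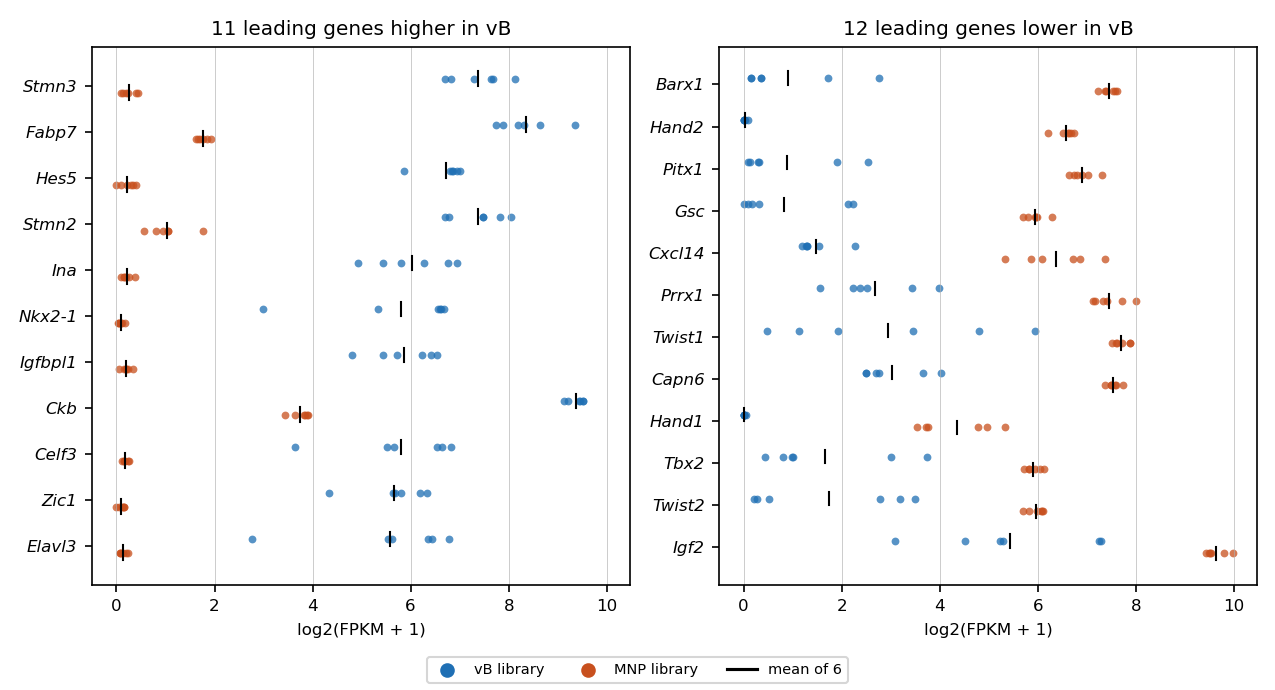
log2(FPKM + 1) (horizontal axis) of 11 of the 12 leading genes higher in vB and of the 12 lower, with 1 point per vB library (blue) and MNP library (orange) and a bar at the mean of 6. No gene shown has a vB library overlapping an MNP one, the vB points are spread widest for Twist1, and Hand2 and Hand1 lie near 0 in all vB libraries.

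Neural progenitor genes were higher in vB almost throughout. Of 15 markers tested, 14 were higher in vB and 0 lower, with a median difference of 4.75 against -0.04 over all tested genes, and only Prom1, a membrane glycoprotein that many progenitors share, was not called (0.42 ± 0.10, adjusted p = 0.0011). Fabp7 measured 214 to 649 FPKM in vB (median 304) and 2.1 to 2.81 in MNP (median 2.32), a difference of 6.60 ± 0.49, adjusted p = 4.2e-13. Hes5 measured 57.3 to 127 FPKM in vB (median 115) and 0 to 0.325 in MNP (median 0.198) (6.50 ± 0.53, adjusted p = 4.3e-12). The lowest vB library for Hes5 was replicate 4, and its level there was still above every MNP library. Zic1, a zinc finger factor of the early neural plate, stood at 19.3 to 80.2 FPKM in vB (median 52.7) and 0 to 0.115 in MNP (median 0.0854) (5.57 ± 0.48, adjusted p = 1.6e-11). Sox1, the SoxB1 factor most restricted to neuroepithelium, was at 9.47 to 60.8 FPKM in vB (median 40.6) and 0 to 0.0697 in MNP (median 0.0353) (5.09 ± 0.50, adjusted p = 4.1e-10), whereas its relative Sox2 had a baseline in MNP, 3.63 to 6.96 FPKM (median 6.16), below vB at 36.4 to 162 FPKM (median 125) (4.00). Fabp5, a paralogue of Fabp7 looked up beside it, was abundant in both tissues at 212 to 551 FPKM in vB (median 282) and 145 to 242 in MNP (median 207) and was not called (0.54 ± 0.21, adjusted p = 0.038).

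The proneural factors that commit progenitors to neurons were higher in vB too. Of 13 tested proneural and Olig bHLH genes, 11 were higher and 0 lower (median 3.54), and the exceptions were Neurod2 (0.77) and Neurod6, factors of later cortical neurons. Neurod6 is listed at 0 in all MNP libraries and in 3 of 6 vB libraries. Neurog2, a proneural factor of dorsal and midbrain progenitors, measured 17.9 to 67.1 FPKM in vB (median 42.6) and 0 to 0.0707 in MNP (median 0.0244) (5.16 ± 0.24, adjusted p = 6.8e-18). Olig2, a factor of ventral progenitors, measured 5.55 to 45.4 FPKM in vB (median 42) and 0.0223 to 0.571 in MNP (median 0.206) (4.58 ± 0.42, adjusted p = 7.9e-11). Both were near 0 in each MNP library. Without vB replicates 1, 4 and 5, the count was 13 of 13.

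The called Notch pathway genes were mostly higher in vB. Of 21 genes tested, 10 were higher in vB and 1 lower (median 0.86). Higher in vB were the ligands Dll3 (4.93) and Dll1 (3.88), the fringe enzymes Mfng (3.53) and Lfng (2.00), which modify Notch receptors, the receptor Notch1 (1.40), and the targets Hes5, Nrarp, Hes6 and Hey1, together with the neuronal ligand Dner. Dll1, the ligand carried by newborn neurons, was at 8.08 to 34.7 FPKM in vB (median 28.6) and 0.576 to 1.02 in MNP (median 0.64) (3.88 ± 0.31, adjusted p = 2.3e-12), with no overlap. Hey1 (1.05 ± 0.16, adjusted p = 2.1e-06) was not called without vB replicates 1, 4 and 5, nor without MNP replicate 1 (0.99) or MNP replicate 4 (0.95). Jag2, a ligand of surface epithelium, was lower, at 0.568 to 4.49 FPKM in vB (median 3.75) and 6.39 to 9.11 in MNP (median 7.12) (-1.05 ± 0.25, adjusted p = 0.00086), and its call was lost without vB replicates 1, 4 and 5 and without vB replicate 4 (-0.78) or MNP replicate 6 (-1.0). Hes1, the target used by many tissues, stood at 7.93 to 35.6 FPKM in vB (median 26.2) and 23.7 to 32.4 in MNP (median 28.4), and its difference of -0.33 (95% interval -0.80 to 0.14) was not called. In vB replicate 4 both Hes genes had their lowest vB value, 57.3 FPKM for Hes5 and 7.93 for Hes1.

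Neuronal genes followed. Of 27 neuronal differentiation genes tested, 24 were higher in vB and 1 was lower (median 3.14). Libraries did not overlap for 23 members higher in vB and 1 lower. Stmn3, a stathmin that regulates neuronal microtubules, on chr2:181306459-181314500, had the largest difference of all genes in the comparison whose libraries did not overlap, at 103 to 279 FPKM in vB (median 178) and 0.0698 to 0.361 in MNP (median 0.165) (7.13 ± 0.36, adjusted p = 6e-17). Stmn2 measured 103 to 263 FPKM in vB (median 176) and 0.479 to 2.42 in MNP (median 0.99) (6.35 ± 0.27, adjusted p = 7.1e-19). Ina, a neuronal intermediate filament, measured 29.4 to 122 FPKM in vB (median 65.3) and 0.0611 to 0.302 in MNP (median 0.13) (5.82 ± 0.30, adjusted p = 9.3e-17). In each of these genes the libraries with the fewest FPKM in vB were replicates 1, 4 or 5. Mtap2, the older symbol of the dendritic microtubule protein Map2, was looked up because Map2 is not a symbol in the tables, and it measured 48 to 153 FPKM in vB (median 80.8) and 3.52 to 5.32 in MNP (median 3.75) (4.08 ± 0.24, adjusted p = 1.7e-15). The member called lower was Ebf3, an Ebf factor also found in crest mesenchyme, at 7.33 to 22.7 FPKM in vB (median 11.1) and 28.9 to 37.9 in MNP (median 31) (-1.32 ± 0.31, adjusted p = 0.00078), whose call was lost in replicates 4 to 6 alone and in a test against a 1.5-fold change, and its relatives Ebf1 (0.78) and Ebf2 (0.27) were not called.

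Most tested genes of transmitter identity were higher in vB. Of 19 genes listed 13 were tested, since the others averaged under 1 FPKM in every tissue. Of the 13, 10 were higher and 1 lower (median 1.67). Members near 0 in MNP, such as Gad2 and Slc17a6, passed the filter only through other tissues and could not be called lower. The share called higher is therefore partly set by the filter. Gad2, an enzyme of GABA synthesis, measured 2.37 to 25.7 FPKM in vB (median 15.9) and 0 to 0.0876 in MNP (median 0.0175) (3.66 ± 0.34, adjusted p = 1e-10), and its relative Gad1 (3.17) and the vesicular GABA carrier Slc32a1 (3.26) were higher too. Slc17a6, a vesicular glutamate carrier, measured 5.29 to 24.1 FPKM in vB (median 12.6) and 0 to 0.0367 in MNP (median 0) (3.61 ± 0.24, adjusted p = 4.2e-14). Th, the rate-limiting enzyme of dopamine synthesis, was higher at 4.89 to 14.1 FPKM in vB (median 9.26) and 0.101 to 1.55 in MNP (median 0.487) (2.65 ± 0.23, adjusted p = 2.6e-11). vB replicate 4 held 0.938 FPKM of Slc32a1 and 2.37 of Gad2, the lowest of the 6, while Slc17a6 was 5.29 FPKM there. Pitx3, a factor of dopamine neurons that muscle precursors also use, was lower, at 0.0658 to 0.722 FPKM in vB (median 0.175) and 0.801 to 5.84 in MNP (median 1.86) (-1.33 ± 0.22, adjusted p = 6.8e-06).

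RNA-binding and chromatin genes that switch as neurons form were mostly higher in vB where called. Of 21 tested, 10 were higher and 1 lower (median 0.86), and without vB replicates 1, 4 and 5 the counts were 14 and 2. Celf3, a neuronal splicing regulator, was at 11.4 to 112 FPKM in vB (median 70.7) and 0.0781 to 0.2 in MNP (median 0.125) (5.62 ± 0.37, adjusted p = 2.1e-14). Elavl2 measured 21.5 to 54.2 FPKM in vB (median 36.9) and 1.48 to 2.52 in MNP (median 2.16) (3.61 ± 0.17, adjusted p = 1.3e-17). Actl6b, the neuronal subunit of the BAF remodelling complex, measured 2.21 to 24.4 FPKM in vB (median 12.7) and 0 to 0.0486 in MNP (median 0.0157) (3.38 ± 0.34, adjusted p = 4.2e-10). Its progenitor counterpart Actl6a was not called (0.10, 95% interval -0.13 to 0.34). Rest, the repressor that silences neuronal genes outside the nervous system, was lower, at 0.647 to 6.33 FPKM in vB (median 3.95) and 10.5 to 18.5 in MNP (median 12.3) (-1.70 ± 0.28, adjusted p = 5.4e-06). Ptbp1, a splicing repressor of non-neuronal cells, measured 84.1 to 179 FPKM in vB (median 102) and 168 to 245 in MNP (median 239) (-0.97 ± 0.15, adjusted p = 1.9e-06) and fell just short of the 2-fold limit. Ptbp1 was called lower without vB replicate 1 (-1.06), vB replicate 5 (-1.10) or MNP replicate 3 (-1.06).

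Axon guidance genes were called in both directions. Of 29 tested, 8 were higher and 7 lower (median -0.06). These shares were 27.6% and 24.1%, against 7.55% and 5.82% of all tested genes. Dcc, the netrin receptor of growing axons, measured 6 to 24.3 FPKM in vB (median 10.1) and 0.0185 to 0.204 in MNP (median 0.0882) (3.37 ± 0.23, adjusted p = 8.1e-14). Nrcam, an axonal adhesion molecule, measured 5.49 to 18.6 FPKM in vB (median 12) and 0.106 to 0.286 in MNP (median 0.21) (3.32 ± 0.21, adjusted p = 8.7e-15), and the ligand Ntn1 7.98 to 30.1 FPKM in vB (median 25.6) and 2.27 to 5.4 in MNP (median 3.83) (2.22 ± 0.25, adjusted p = 7.2e-09). Sema3a, a repellent secreted along nerve paths, was lower in vB, 1.56 to 5.49 FPKM in vB (median 2.93) and 18.1 to 31.5 in MNP (median 22.8) (-2.61 ± 0.19, adjusted p = 2e-13), with the highest vB library below the lowest MNP one.

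Factors that mark position within the brain were higher in vB. Of 19 ventral brain factors tested, 18 were higher in vB and 0 lower (median 2.36), 16 with no overlap, and only Lmx1b (0.16) was not called. Nkx2-1, the homeodomain factor of hypothalamus and ventral telencephalon, on chr12:56531935-56536908, measured 6.93 to 102 FPKM in vB (median 95) and 0.0276 to 0.125 in MNP (median 0.0522) (5.72 ± 0.75, adjusted p = 1.5e-07). Its level in vB replicate 4 was 6.93 FPKM, against 39.4 in replicate 5 and 93.8 or more in the other 4. Vax1, a ventral forebrain homeodomain factor, was at 0.483 to 26.2 FPKM in vB (median 15.9) and 0 to 0.09 in MNP (median 0) (3.51 ± 0.48, adjusted p = 2.7e-07). The hypothalamic factor Otp, at 0.619 to 41.7 FPKM (median 18.4) in vB, and the ganglionic eminence factors Gsx1, at 2.97 to 13 FPKM (median 9.58), and Gsx2, at 1.52 to 15.2 FPKM (median 9.44), are listed at 0 in all 6 MNP libraries, so no fold is given. Shh, the Hedgehog ligand of the ventral midline, was also higher and is described with its pathway.

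Dorsal factors were measured in vB as well. Of 16 tested, 10 were higher than in MNP and 2 lower (median 1.63; 10 and 1 with the replicate block), led by Zic1 (5.57), Tbr1 (3.53), a cortical neuron factor at 2.06 to 31.1 FPKM in vB (median 13.3) and 0.0127 to 0.0783 in MNP (median 0.0343), and Zic4 (3.39). The contrast of vB with dB in the same fit called 61 genes higher in vB (0.438% of those tested) and 133 lower (0.954%), and several ventral factors were among the higher ones. Nkx2-1 averaged 2.48 ± 2.13 FPKM (SD, n = 6) in dB (vB minus dB 4.26 ± 0.75, adjusted p = 0.00035), Otp 0.849 ± 0.74 (2.99 ± 0.40, adjusted p = 3.5e-06) and Olig2 7.98 ± 1.94 (1.76 ± 0.42, adjusted p = 0.0097). By contrast Hes5 averaged 117 ± 18.9 FPKM in dB (-0.14 ± 0.53, adjusted p = 0.95) and Stmn3 107 ± 23.1 (0.66 ± 0.36, adjusted p = 0.38), neither called. Both contrasts use the same vB libraries, so these values are only set side by side.

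Along the head to tail axis, vB libraries differed among themselves. Of 22 forebrain and midbrain factors tested, 15 were higher in vB and 2 lower (median 2.28). The counts were 13 and 1 with the replicate block and 13 and 3 without vB replicates 1, 4 and 5. Otx2, a factor of forebrain and midbrain, measured 28.7 to 68.2 FPKM in vB (median 45.5) and 0 to 0.306 in MNP (median 0.0603) (5.32 ± 0.26, adjusted p = 1.8e-17). Fezf1, a factor of rostral forebrain, measured 7.29 to 37.4 FPKM in vB (median 27.2) and 0 to 0.0846 in MNP (median 0.00781) (4.48 ± 0.22, adjusted p = 2.3e-17). Within vB, replicate 4 was the highest library for Otx2 and the lowest for Fezf1. En2, a factor of the midbrain and its border with the hindbrain, was 0.0719, 0.165 and 0 FPKM in vB replicates 1 to 3 and 16.4, 23.8 and 3.41 in replicates 4 to 6, so the sets of 3 did not overlap. Its difference from MNP of 1.72 ± 0.56, adjusted p = 0.013 was lost with replicate number as a block (adjusted p = 0.085), in replicates 1 to 3 alone, and without vB replicate 4 (1.27) or vB replicate 5 (1.16). Foxa2, the floor plate forkhead factor, was 0.875 to 2.22 FPKM in vB replicates 1 to 3 and 8.52 to 10.2 in replicates 4 to 6, and its call (1.48 ± 0.36, adjusted p = 0.00099) was lost in replicates 1 to 3 alone. Irx3, an Iroquois factor of tissue caudal to the rostral forebrain, measured 3.08 to 36.6 FPKM in vB (median 6.93) and 16.2 to 27.4 in MNP (median 21.3) (-1.35 ± 0.40, adjusted p = 0.0065), and its level in vB replicate 5 was above all MNP libraries. The call of Irx3 was lost in replicates 4 to 6 alone and in a test against a 1.5-fold change. Of 10 tested Hox genes of groups 1 to 5, 0 were higher and 1, Hoxa2, was lower. That share of 10% is under the 13.4% of all tested genes called. Hoxa2 measured 0 to 0.225 FPKM in vB (median 0.0168) and 0.279 to 3 in MNP (median 1.36) (-1.11 ± 0.16, adjusted p = 6.4e-07) and was not called without MNP replicate 6 (-0.95). Sequencing runs follow the replicate numbers, and for En2 and Foxa2 the run and the replicate set cannot be told apart.

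The jaw genes formed the opposite pole. Of 22 tested genes of the endothelin, Dlx and Hand axis, 0 were higher in vB and 19 were lower (median -2.74), 18 with no overlap. Without vB replicates 1, 4 and 5, 2 were higher and 19 lower. Hand2 was 72.7 to 106 FPKM (median 97.7) in MNP and 0 to 0.0705 FPKM (median 0) in vB, where 4 of 6 libraries are listed at 0 (-6.54 ± 0.31, adjusted p = 7.5e-18). Barx1, a homeodomain factor of the proximal jaw and later of teeth, on chr13:48663036-48666507, measured 0.102 to 5.82 FPKM in vB (median 0.276) and 149 to 194 in MNP (median 176) (-6.54 ± 0.32, adjusted p = 2.3e-17). Pitx1, a factor of lower jaw and hindlimb, measured 0.0629 to 4.78 FPKM in vB (median 0.239) and 98.7 to 158 in MNP (median 114) (-6.02 ± 0.36, adjusted p = 3.5e-15). For Barx1 the highest vB values, 5.82 and 2.28 FPKM, came from replicates 1 and 5, and the other 4 were at 0.277 or less. Gsc, the goosecoid factor of the arch mesenchyme, followed at 0 to 3.72 FPKM in vB (median 0.178) and 51.2 to 77.5 in MNP (median 61) (-5.13 ± 0.32, adjusted p = 9.6e-15). Ednra, the receptor through which endothelin acts on crest cells, measured 0.625 to 7.43 FPKM in vB (median 3.9) and 16.3 to 32.4 in MNP (median 24.5) (-2.64 ± 0.29, adjusted p = 3.5e-09). The receptor Ednrb, counted in the crest glia list and not in this one, was in contrast higher. It measured 18.8 to 46.5 FPKM in vB (median 28.4) and 0.912 to 3.53 in MNP (median 1.71) (3.42 ± 0.22, adjusted p = 9.2e-15).

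Within the Dlx family the pair Dlx5 and Dlx6 was called and the pair Dlx1 and Dlx2 was not. Dlx5 measured 3.48 to 39.5 FPKM in vB (median 24.4) and 55.3 to 85.6 in MNP (median 72.9) (-1.83 ± 0.37, adjusted p = 0.00011) and its neighbour Dlx6 0.605 to 13.9 FPKM in vB (median 9.33) and 36.9 to 49.2 in MNP (median 45.8) (-2.60 ± 0.36, adjusted p = 2.9e-07), both lower in vB. Dlx1 measured 2.58 to 51.8 FPKM in vB (median 34.7) and 13.6 to 18.9 in MNP (median 16.2) and Dlx2 3.72 to 90.9 FPKM in vB (median 50.7) and 15.9 to 41.1 in MNP (median 25.9), and with differences of 0.46 (95% interval -0.49 to 1.42) and 0.43 (-0.61 to 1.47) neither was called. Dlx1 lay between 14.7 and 51.8 FPKM in 5 vB libraries and at 2.58 in replicate 4. Without vB replicates 1, 4 and 5 both were called higher in vB (1.58 and 1.43), as was Dlx1 without vB replicate 4 (1.00) and Dlx2 without vB replicate 4 (1.03). All 4 are factors of ventral forebrain interneurons as well as of the jaw, and in dB they averaged 6.01 ± 4.15, 10.8 ± 7.02, 5.06 ± 3.32 and 1.39 ± 1.01 FPKM for Dlx1, Dlx2, Dlx5 and Dlx6.

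The contrast of MNP with MXP, the upper jaw prominence of the same arch, called 96 genes higher in MNP (0.689%) and 48 lower (0.344%). Hand2 averaged 1.52 ± 3.1 FPKM (SD, n = 5) in MXP (MNP minus MXP 5.82 ± 0.32, adjusted p = 8.4e-15), Pitx1 9.21 ± 6.49 (3.74 ± 0.38, adjusted p = 2.1e-08) and Dlx6 4.25 ± 2.05 (3.20 ± 0.37, adjusted p = 3.8e-07). Barx1 was at 110 ± 44.6 FPKM in MXP and was not called there (0.75 ± 0.34, adjusted p = 0.56), and neither were Prrx1 (-0.20 ± 0.29, adjusted p = 1) or Twist1 (-0.47 ± 0.54, adjusted p = 1). Nkx2-3, an Nkx2 factor of pharyngeal tissue, was at 0.116 to 4.16 FPKM in vB (median 2.83) and 1.53 to 3.21 in MNP (median 2.55), was not called between vB and MNP (-0.19, 95% interval -0.69 to 0.31), and averaged 0.0853 ± 0.142 FPKM in MXP (1.67 ± 0.26, adjusted p = 5.5e-05).

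Most crest mesenchyme factors were lower in vB. Of 27 tested, 19 were lower and 1 higher (median -1.96). Libraries did not overlap for 13 members lower in vB and 1 higher. Prrx1, a homeodomain factor of craniofacial and limb mesenchyme, measured 1.96 to 14.9 FPKM in vB (median 4.47) and 138 to 256 in MNP (median 164) (-4.77 ± 0.28, adjusted p = 1.3e-15). Twist1, the bHLH factor that keeps crest cells mesenchymal, measured 0.397 to 60.3 FPKM in vB (median 6.33) and 181 to 236 in MNP (median 203) (-4.75 ± 0.51, adjusted p = 2.5e-09), with 60.3 FPKM in vB replicate 5, 27 in replicate 1 and 0.397 in replicate 6. Tbx2, a T-box repressor, stood at 0.352 to 12.3 FPKM in vB (median 0.985) and 51.5 to 68.8 in MNP (median 58.1) (-4.25 ± 0.38, adjusted p = 3.2e-11). The highest vB library for all 3 was replicate 5. Zeb1, a zinc finger repressor known from epithelial to mesenchymal transition, was the 1 member higher in vB, at 13.3 to 26.4 FPKM in vB (median 21.7) and 8.56 to 9.56 in MNP (median 9.29) (1.08 ± 0.13, adjusted p = 1.1e-08). Without vB replicates 1, 4 and 5 the counts were 20 lower and 2 higher and the median was -2.22, and with the replicate block 18 were lower and 1 higher.

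Matrix and surface genes of mesenchyme overlapped more often than the jaw genes. Of 23 tested, 18 were lower in vB and 0 higher (median -1.85). Libraries did not overlap for 9 of the 23, all lower in vB, against 21.2% of all tested genes in either direction. The counts were 21 and 0 without vB replicates 1, 4 and 5 (median -2.52), and with the replicate block 16 and 0. Postn, a matricellular protein, was at 0.603 to 10.2 FPKM in vB (median 2.42) and 12.4 to 46 in MNP (median 35.1) (-3.06 ± 0.45, adjusted p = 8.7e-07). Pdgfra, the Pdgf receptor of crest mesenchyme, measured 0.795 to 12.3 FPKM in vB (median 5.33) and 32.2 to 63.7 in MNP (median 42.9) (-3.03 ± 0.32, adjusted p = 2.1e-09). Col1a2, a chain of type I collagen, was at 1.15 to 77.7 FPKM in vB (median 26.2) and 64.2 to 216 in MNP (median 94.2) (-2.74 ± 0.53, adjusted p = 6.4e-05). For the fibrillar collagens the vB libraries split: Col3a1 was 62, 85.2 and 98.3 FPKM in vB replicates 1, 4 and 5 and 19.3, 7.4 and 0.722 in replicates 2, 3 and 6. Its call (-2.29 ± 0.57, adjusted p = 0.0012) was lost with the replicate block (adjusted p = 0.072), as was that of Col1a1 (-2.02 ± 0.60, adjusted p = 0.0068, then adjusted p = 0.11). Lum, a collagen-binding proteoglycan, reached 94.9 FPKM in vB replicate 4, above every MNP library, at 8.06 to 37.2 FPKM (median 21.1), and was not called (-0.35).

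Genes of skeletal and muscle precursors were mostly lower in vB where they were called. Of 14 skeletal primordium genes tested, 4 were lower in vB and 2 higher (median -0.53), and of 13 muscle progenitor genes 8 were lower and 0 higher (median -1.47). The shares called were 42.9% and 61.5%, against 13.4% of all tested genes. Of the skeletal genes, 5 were lower and 3 higher without vB replicates 1, 4 and 5. Runx2, the master factor of bone, measured 0.0582 to 0.331 FPKM in vB (median 0.101) and 1.4 to 17.8 in MNP (median 6.4) (-2.53 ± 0.43, adjusted p = 8.7e-06). Col9a1, a cartilage collagen, measured 0.0684 to 14 FPKM in vB (median 3.15) and 16.6 to 63.3 in MNP (median 33.3) (-3.06 ± 0.49, adjusted p = 3.6e-06). The MNP libraries themselves ranged widely: Runx2 was 17.8, 9.33 and 9.6 FPKM in replicates 2, 3 and 6 and 3.48, 1.4 and 2.69 in replicates 1, 4 and 5. Actc1, a striated muscle actin, was at 0.0673 to 2.04 FPKM in vB (median 0.454) and 2.7 to 34.7 in MNP (median 12) (-3.07 ± 0.52, adjusted p = 8.6e-06). Myog, the factor of differentiating muscle, measured 0 to 1.48 FPKM in vB (median 0.0364) and 0.946 to 16.5 in MNP (median 8.57) (-2.63 ± 0.40, adjusted p = 1.8e-06), with 0.946 FPKM in MNP replicate 4 and 16.5 in replicate 6. Sp5 and Sox6, the 2 members higher in vB (1.22 and 1.08), are known outside the skeleton as a Wnt target and a neural Sox factor. The call of Sox6 was lost without vB replicate 2 (0.86), vB replicate 3 (0.95) or MNP replicate 4 (0.99).

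Nearly all surface epithelium genes were lower in vB. Of 20 genes tested, 19 were lower in vB and 0 higher (median -2.45), 17 with no overlap, and the median without vB replicates 1, 4 and 5 was -3.05. Krt14 measured 0 to 1.07 FPKM in vB (median 0.0419) and 11.8 to 33.6 in MNP (median 23.1) (-4.17 ± 0.38, adjusted p = 6.1e-11). Its partner keratin Krt5 measured 0 to 0.725 FPKM in vB (median 0.0329) and 4.54 to 40 in MNP (median 22) (-4.06 ± 0.50, adjusted p = 3.1e-08). Trp63, the p63 factor of stratified epithelium, measured 0.00838 to 1.71 FPKM in vB (median 0.039) and 11.1 to 14.5 in MNP (median 13.8) (-3.44 ± 0.20, adjusted p = 1.7e-15). In vB, Trp63 was 0.894 and 1.71 FPKM in replicates 1 and 5 and at most 0.0506 in the other 4. Anxa1, an annexin of many epithelia, was not called (-0.91 ± 0.30, adjusted p = 0.012), but it was called lower without vB replicate 1 (-1.05), vB replicate 4 (-1.01), vB replicate 5 (-1.01), MNP replicate 4 (-1.10) or MNP replicate 5 (-1.03).

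Markers of vessels, macrophages and red cells gave no calls in limma. Of 13 endothelial, 10 macrophage and 10 erythroid genes tested, 0 were called in either direction, with medians of -0.27, 0.19 and -0.43. Of all tested genes 13.4% were called, and at that share lists of this size would hold few calls. An unadjusted limma p under 0.05 was found for 6 (46.2%), 0 and 2 (20%) of them, against 49.5% of all tested genes. Without vB replicates 1, 4 and 5, 5 endothelial and 9 erythroid genes were called lower in vB. Hbb-y, an embryonic beta globin, was 3013, 3472 and 4109 FPKM in vB replicates 2, 3 and 6, 11706, 23692 and 6493 in replicates 1, 4 and 5, and 4542 to 13777 FPKM (median 9607) in MNP. Of 7 genes of crest glia and cranial ganglia, 2 were higher (Ednrb and Pou4f1) and 1, Erbb3, was lower (-1.60 ± 0.24, adjusted p = 1.6e-06), and without vB replicates 1, 4 and 5, 3 were higher and 1 lower. The part of blood, vessels and glia in the other results was not tested.

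**Figure D4:**
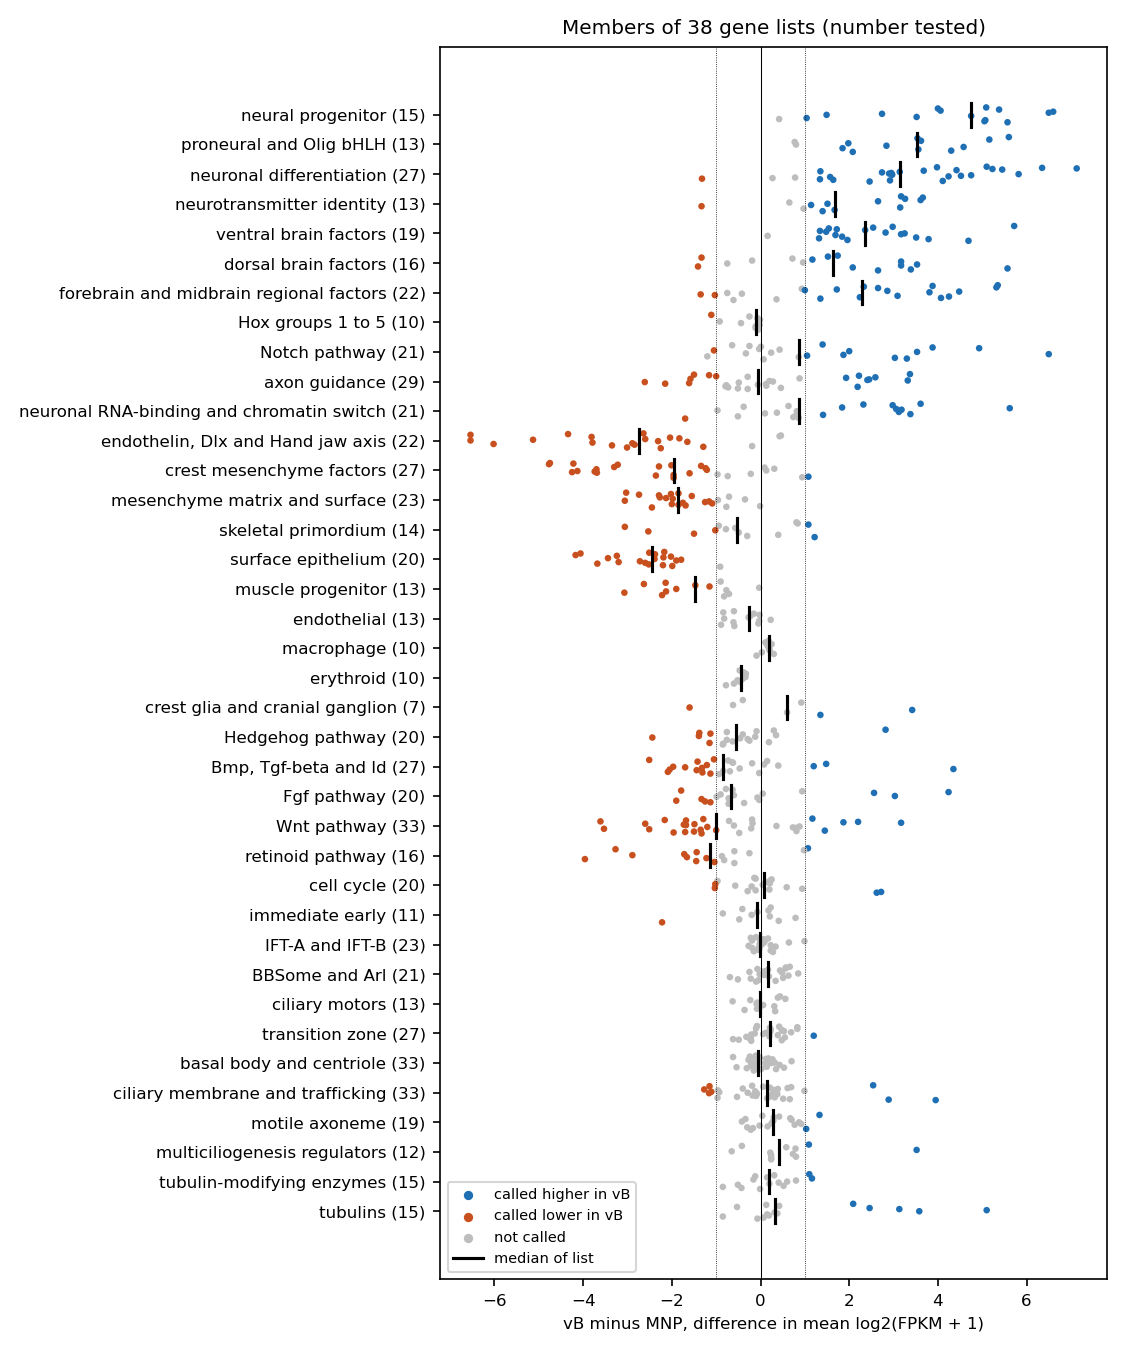
Difference between vB and MNP in mean log2(FPKM + 1) (horizontal axis) for each tested member of 38 gene lists (vertical axis, number tested in brackets), coloured by call, with a black bar at the list median and dotted lines at a 2-fold change. Neural lists lie to the right, jaw, mesenchyme and epithelial lists to the left, signalling lists spread to both sides, and the intraflagellar transport, BBSome, motor and basal body lists stay within the dotted lines.

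The Hedgehog pathway signals through the primary cilium, and its ligand and its target Gli1 differed in opposite directions. Of 20 genes tested, 1 was higher in vB and 5 were lower (median -0.55). These shares were 5% and 25%, against 7.55% and 5.82% of all tested genes. Shh measured 16.1 to 35.6 FPKM in vB (median 26.3) and 0.95 to 5.81 in MNP (median 3.29) (2.82 ± 0.37, adjusted p = 1.4e-07). Gli1, a transcriptional target of the pathway, was lower, at 2.61 to 14.6 FPKM in vB (median 9.07) and 16.7 to 28.8 in MNP (median 22.2) (-1.38 ± 0.28, adjusted p = 0.00013), and so was the effector Gli2 (-1.13), which was not called without vB replicate 4 (-0.91). Ptch1, the Shh receptor and also a target, was at 20.9 to 73.3 FPKM in vB (median 50.2) and 25.4 to 47.7 in MNP (median 38.5), a difference of 0.30 (95% interval -0.20 to 0.79) that was not called. The coreceptors Gas1, at 8.56 to 48.6 FPKM in vB (median 15.2) and 79.4 to 118 in MNP (median 95.1) (-2.44 ± 0.28, adjusted p = 1.2e-08), and Cdon (-1.39) were lower, as was Tulp3, a ciliary trafficking adaptor and inhibitor of the pathway. For Shh, Gas1 and Gli1 no vB library overlapped an MNP library, and vB replicate 4 was the lowest of the vB libraries for Shh and Gli1.

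Among Bmp, Fgf and Wnt genes the called members went in both directions, and many members were not called. Of 27 Bmp, Tgf-beta and Id genes tested, 3 were higher (Id4, Nog and Fst), 12 lower and 12 not called (median -0.84). The share called was 55.6%, against 13.4% of all tested genes. Fst (1.20) was not called without MNP replicate 4 (0.98). Id4, a bHLH inhibitor of neural progenitors, was at 25.2 to 158 FPKM in vB (median 108) and 2.88 to 4.43 in MNP (median 3.65) (4.35 ± 0.34, adjusted p = 1.6e-12). Its relative Id1 measured 15.3 to 53.5 FPKM in vB (median 24.3) and 73.9 to 108 in MNP (median 88.1) (-1.70 ± 0.21, adjusted p = 2.9e-08). The Id genes had opposite signs and neither had overlapping libraries. Bmp4, a ligand of the jaw epithelium and mesenchyme, measured 0.656 to 6.24 FPKM in vB (median 2.48) and 11.7 to 25.9 in MNP (median 18.4) (-2.51 ± 0.27, adjusted p = 1.8e-09). Tgfb2 measured 0.943 to 5.77 FPKM in vB (median 2.17) and 7.13 to 24.9 in MNP (median 14.3) (-2.09 ± 0.35, adjusted p = 6.8e-06). Of 20 Fgf genes, 3 were higher, 5 lower and 12 not called (median -0.67, 40% called). Fgf15, a ligand of forebrain and midbrain, was at 20.2 to 40 FPKM in vB (median 26.4) and 0.193 to 0.827 in MNP (median 0.541) (4.24 ± 0.40, adjusted p = 1.3e-10). Fgfr3, a receptor of neural progenitors, measured 6.76 to 43.4 FPKM in vB (median 34.4) and 1.9 to 3.05 in MNP (median 2.26) (3.03 ± 0.31, adjusted p = 7.1e-10). Fgf17, a ligand of the midbrain and hindbrain border, differed by 2.56. Etv4, a readout of Fgf signalling, was lower, at 1.16 to 7.04 FPKM in vB (median 3.33) and 12.2 to 19.1 in MNP (median 16.1) (-1.90 ± 0.23, adjusted p = 3.4e-08).

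Of 33 Wnt genes tested, 5 were higher in vB, 17 lower and 11 not called (median -1.0), with 5 higher and 15 lower with the replicate block. The share called with all libraries was 66.7%, against 13.4% of all tested genes. The higher ones were the ligands Wnt8b, Wnt7a, Wnt7b and Wnt1 and the receptor Fzd3. Wnt8b, a ligand of the forebrain, was at 4.06 to 12.5 FPKM in vB (median 8.15) and 0 to 0.016 in MNP (median 0) (3.17 ± 0.16, adjusted p = 4.4e-17). Wnt6, a ligand of surface epithelium, measured 0 to 3.82 FPKM in vB (median 0.0473) and 15.3 to 20 in MNP (median 17.9) (-3.61 ± 0.29, adjusted p = 2.5e-12). Frzb, a secreted Wnt antagonist, measured 1.1 to 4.71 FPKM in vB (median 3.08) and 35.7 to 46.1 in MNP (median 40.2) (-3.53 ± 0.20, adjusted p = 1.1e-15). Of 16 retinoid genes, 9 were lower and 1 higher (median -1.13, 62.5% called). Of these the replicate block kept 7 and 0, and without vB replicates 1, 4 and 5, 9 were lower and 0 higher. The higher one, Aldh1a1, an enzyme of retinoic acid synthesis, named after its values were seen, measured 0.117 to 10.7 FPKM in vB (median 1.66) and 0.116 to 0.438 in MNP (median 0.282) (1.07 ± 0.34, adjusted p = 0.011), and was 3.86, 3.05 and 10.7 FPKM in vB replicates 1, 4 and 5 and at most 0.283 in the other 3. It was not called with the replicate block (adjusted p = 0.11) or without vB replicate 1 (0.90), vB replicate 4 (0.95) or vB replicate 5 (0.65), and the difference was -0.12 without all 3. Rarg, a retinoic acid receptor of craniofacial mesenchyme, measured 0.851 to 15.1 FPKM in vB (median 1.88) and 61 to 78.5 in MNP (median 65.2) (-3.96 ± 0.33, adjusted p = 1.1e-11). Aldh1a2, which makes retinoic acid, measured 0.0422 to 2.64 FPKM in vB (median 0.415) and 7.11 to 31.7 in MNP (median 14.4) (-3.27 ± 0.45, adjusted p = 3.4e-07). Cyp26b1, which degrades it, was lower as well (-2.89), the same direction as Aldh1a2. Crabp1, a retinoic acid binding protein, spanned 14.4 to 457 FPKM (median 102) in vB, from 14.4 in replicate 3 to 457 in replicate 4, against 183 to 266 FPKM (median 237) in MNP, and its call (-1.44 ± 0.57, adjusted p = 0.042) was lost with the replicate block (adjusted p = 0.13). It was also lost in 8 of 12 fits that left out 1 library (-1.48 to -0.95), those without vB replicates 2, 3 or 6 and without MNP replicates 1, 3, 4, 5 or 6.

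Cell cycle genes were called in both directions. Of 20 tested, 2 were higher and 2 lower (20% called against 13.4% of all tested genes; median 0.08), and without vB replicates 1, 4 and 5 the counts were 4 and 3. Mki67, a marker of cycling cells, was at 28.9 to 45.6 FPKM in vB (median 37.6) and 31.5 to 47.2 in MNP (median 40.3), with a difference of -0.14 (95% interval -0.43 to 0.15). The higher ones were Btg2, an antiproliferative gene of neurogenic divisions, at 27.2 to 45.1 FPKM in vB (median 41.1) and 4 to 5.4 in MNP (median 5.12) (2.72 ± 0.15, adjusted p = 1.6e-16), and Gadd45g, at 33.9 to 77.1 FPKM in vB (median 52.1) and 5.89 to 9.66 in MNP (median 7.02) (2.62 ± 0.15, adjusted p = 9.7e-16), both without overlap. Cdkn1c, the p57 inhibitor, was lower, at 127 to 329 FPKM in vB (median 221) and 284 to 682 in MNP (median 390) (-1.03 ± 0.19, adjusted p = 3.1e-05), and its call was lost without vB replicate 3 (-0.97), vB replicate 4 (-0.89), MNP replicate 2 (-0.94) or MNP replicate 6 (-0.90). Of 11 immediate early genes, 1 was lower, Klf4 (-2.22 ± 0.34, adjusted p = 1.8e-06), and 0 were higher (median -0.07), and without vB replicates 1, 4 and 5, 2 were lower and 1 higher. With all libraries the share called was 9.09%, under the 13.4% of all tested genes.

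Few of the genes that build the cilium were called. Over 9 ciliary lists with 194 tested genes, 10 were higher and 4 lower, 7.22% called against 13.4% of all tested genes, and without vB replicates 1, 4 and 5 the counts were 16 and 6. In 5 lists of structural components (intraflagellar transport, BBSome and Arl, motors, transition zone, basal body), 1 of 117 was called, 0.855%, and 103 (88.0%) lay within a 1.5-fold difference, as did 74.1% of all tested genes. The count was 2 of the 117 without vB replicates 1, 4 and 5. None of the 57 tested intraflagellar transport, BBSome and motor genes was called by limma, although 22 (38.6%) had an unadjusted p under 0.05, as did 49.5% of all tested genes, and without vB replicates 1, 4 and 5 the count was 1. Ift88, a core anterograde transport subunit, measured 6.95 to 10.3 FPKM in vB (median 8.07) and 8.1 to 8.97 in MNP (median 8.57), a difference of -0.03 (95% interval -0.21 to 0.16), and the kinesin motor Kif3a 11.6 to 22.9 FPKM in vB (median 15.7) and 10.4 to 12.4 in MNP (median 12) (0.44, 0.18 to 0.70). The 1 structural gene called was Ahi1, a transition zone protein tied to Joubert syndrome, at 11 to 22.9 FPKM in vB (median 14.7) and 5.38 to 6.9 in MNP (median 6.26) (1.20 ± 0.12, adjusted p = 5.4e-10), with no overlap. Arl13b, a ciliary membrane GTPase, was lower in every vB library than in any MNP library, at 3.05 to 5.79 FPKM in vB (median 5.01) and 7.6 to 9.25 in MNP (median 8.28), yet its difference of -0.69 ± 0.10, adjusted p = 3.6e-07 stayed within 2-fold.

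The other ciliary calls lay in 4 lists of membrane and trafficking genes, motile genes, their regulators and tubulin-modifying enzymes. Of 33 ciliary membrane and trafficking genes tested, 3 were higher (Lmo1, Fez1 and Tub) and 4 lower (Rab34, Flna, Tulp3 and Pkd2), 21.2% called, and without vB replicates 1, 4 and 5 the counts were 3 and 6. Tub, the neuronal tubby protein, was at 3.05 to 29.2 FPKM in vB (median 18.2) and 1.13 to 2.13 in MNP (median 1.49) (2.54 ± 0.32, adjusted p = 5e-08). Its relative Tulp3 measured 3.56 to 12 FPKM in vB (median 7.47) and 14.7 to 20.9 in MNP (median 18) (-1.15 ± 0.16, adjusted p = 4e-07), and neither gene had overlapping libraries. Without vB replicate 4, Tulp3 (-0.96) and Pkd2 (-1.0) fell just inside 2-fold and were not called. Rab34, a GTPase of early cilium assembly, measured 14.3 to 29.1 FPKM in vB (median 21.3) and 49.1 to 55.8 in MNP (median 50) (-1.27 ± 0.13, adjusted p = 5.4e-10). Of 47 motile axoneme genes listed only 19 were tested, since the others had no matching symbol or averaged under 1 FPKM in every tissue. Of these 19 motile axoneme genes 2 were higher, among them Dnahc7a, and 0 lower, 10.5% called, with 4 higher without vB replicates 1, 4 and 5. Dnahc7a, an inner arm dynein, measured 2.77 to 6.72 FPKM in vB (median 3.45) and 0.595 to 1.37 in MNP (median 0.882) (1.33 ± 0.17, adjusted p = 4.2e-08). Of 12 regulators of multiciliogenesis 2 were higher, Rfx4 and Foxj1, 16.7% called, with 3 higher without those libraries. Rfx4, which is also a neural progenitor factor, measured 6.72 to 24.7 FPKM in vB (median 11.2) and 0.0228 to 0.409 in MNP (median 0.0779) (3.52 ± 0.20, adjusted p = 5.8e-16). Foxj1, the master factor of motile cilia, measured 0.759 to 3.06 FPKM in vB (median 2.3) and 0.233 to 0.537 in MNP (median 0.366) (1.09 ± 0.16, adjusted p = 1.2e-06) and was not called without vB replicate 2 (0.99). Of 15 tubulin-modifying enzymes 2 were higher, the polyglutamylase Ttll7 (1.16 ± 0.17, adjusted p = 5.9e-07) and Ttll1 (1.10 ± 0.10, adjusted p = 9.5e-11), 13.3% called, with 4 higher without those libraries. The shares of these 3 lists lie near the 13.4% of all tested genes.

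The neuronal tubulin isotypes were higher in vB and the others were not called. Of 15 tested, 5 were higher in vB and 0 lower (median 0.32), 33.3% called against 13.4% of all tested genes. Without vB replicates 1, 4 and 5, 1 was lower. Tubb3, the neuronal beta tubulin, was at 251 to 871 FPKM in vB (median 539) and 8.22 to 23.5 in MNP (median 14.4) (5.10 ± 0.27, adjusted p = 1.3e-16). Tubb4a measured 32.4 to 66.3 FPKM in vB (median 50.9) and 2.04 to 4.27 in MNP (median 3.31) (3.58 ± 0.19, adjusted p = 1.6e-16). Tubb2b measured 284 to 1009 FPKM in vB (median 575) and 47.3 to 83.2 in MNP (median 62.9) (3.13 ± 0.22, adjusted p = 8.3e-14). No vB library of these genes overlapped an MNP library. Tuba1a, an alpha tubulin abundant in neurons, was at 1107 to 2216 FPKM in vB (median 1470) and 304 to 391 in MNP (median 357) (2.09 ± 0.13, adjusted p = 5.3e-15), while Tuba1b (0.13, 95% interval -0.23 to 0.49) and Tubb5 (0.38, 0.14 to 0.62) were not called. Tubulin genes are close in sequence, and the estimate for 1 isotype may hold reads of another.

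A set of 24 ciliary genes was taken from the text of the study, which mentions others too. All were tested, and since the study chose some of them on these samples their direction is no independent evidence. Of them 3 were higher in vB (Tubb3, Lmo1 and Fez1), 4 lower (Pkp3, Ap1m2, Flna and Tulp3) and 17 not called, 10 of which still had an adjusted p under 0.05. Lmo1, a LIM-only cofactor, measured 22.6 to 106 FPKM in vB (median 82.4) and 1.98 to 4.94 in MNP (median 3.4) (3.95 ± 0.32, adjusted p = 5.7e-12). Fez1, a kinesin adaptor of axons, measured 70.5 to 131 FPKM in vB (median 106) and 8.5 to 16.4 in MNP (median 13.3) (2.89 ± 0.18, adjusted p = 8.9e-15). Pkp3, a desmosomal plakophilin on chr7:141078229-141090510, measured 0 to 0.823 FPKM in vB (median 0.0251) and 3.89 to 5.65 in MNP (median 4.46) (-2.20 ± 0.17, adjusted p = 1.4e-12). Ap1m2, an epithelial clathrin adaptor, measured 0 to 2.29 FPKM in vB (median 0.073) and 3.67 to 5.48 in MNP (median 4.9) (-1.99 ± 0.22, adjusted p = 4.3e-09). Both are among the 20 epithelial markers and, within vB, were highest in replicates 1 and 5. Rab3il1, a Rab exchange factor, was at 4.08 to 11.9 FPKM in vB (median 7.39) and 12.6 to 16.1 in MNP (median 14.3), with no overlap and a difference of -0.96 ± 0.18, adjusted p = 3.9e-05, just inside 2-fold, and it was called lower without vB replicates 1, 4 and 5 together (-1.57) and without vB replicate 1 (-1.08), vB replicate 4 (-1.07) or vB replicate 5 (-1.10). For 13 of the 17 the 95% interval lay wholly within a 2-fold change, among them Pcm1 (-0.27 to 0.15), Arl3 (-0.02 to 0.39), Lztfl1 (-0.16 to 0.33), Tmem216 (-0.06 to 0.47), Ift20 (-0.46 to 0.07), Cep135 (-0.39 to -0.10), Cby1 (0.49 to 0.90), Trip11 (-0.78 to 0.16) and Pam (-0.47 to 0.77). Bbip1 (0.85 ± 0.12, adjusted p = 5e-07) and Tmem107 (0.83 ± 0.16, adjusted p = 9e-05) were higher in every vB library than in any MNP one without reaching 2-fold.

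**Figure D5:**
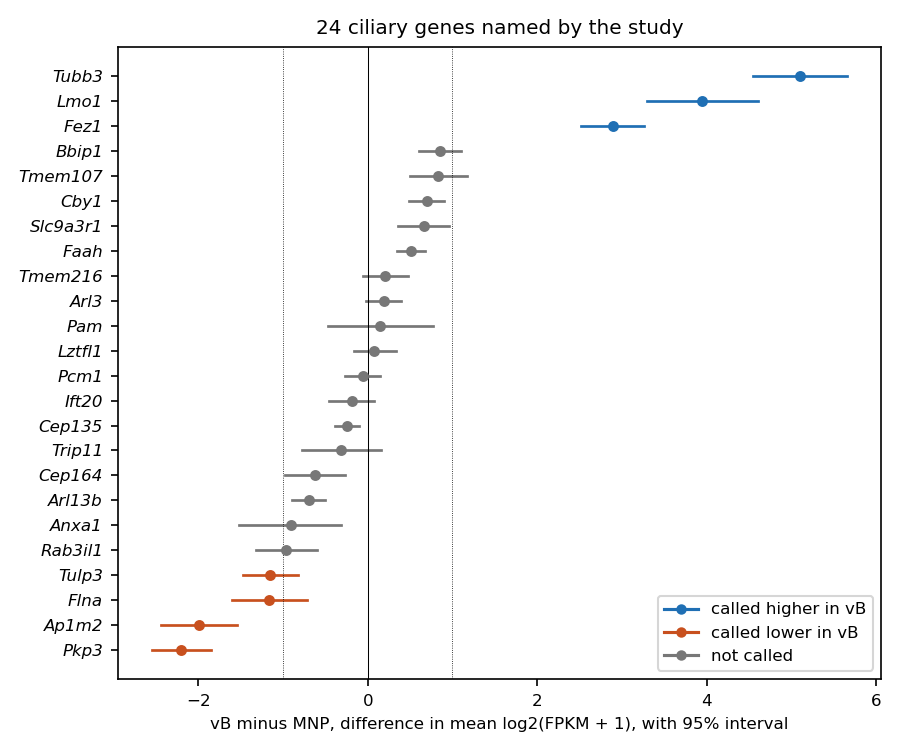
Difference between vB and MNP in mean log2(FPKM + 1) with its 95% interval (horizontal axis) for 24 ciliary genes taken from the study's text (vertical axis), coloured by call, with dotted lines at a 2-fold change. Tubb3, Lmo1 and Fez1 stand to the right of the lines, Pkp3, Ap1m2, Flna and Tulp3 to the left of them, and the other 17 between.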

How the data were processed

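PolyA RNA was sequenced from 35 libraries, of which the 6 vB and 6 MNP libraries are compared here. The authors deposited, for each library, a table of FPKM per transcript, estimated with Cufflinks on mm10 transcripts and normalised to transcript length and library size. The same deposited tables hold a coverage signal per transcript, used only as a check of depth. The median of coverage divided by FPKM over long transcripts lay between 3.15 and 3.97 in vB libraries and between 3.00 and 5.06 in MNP libraries. In vB 11894 to 12844 genes and in MNP 12129 to 12534 genes reached 1 FPKM. No read counts were used, so depth per gene is unknown. The study's methods also name Bowtie2, RSEM, RUVSeq and DESeq2, and the submitters' processing notes list mm10, Bowtie2 and DESeq2. The aligner behind the FPKM values is not given in the sources used here.

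FPKM of 59055 transcripts were summed by gene symbol and compared as log2(FPKM + 1) with limma 3.58.1 (R 4.3.3; moderated statistics with trend and robust options) and Python 3.11.15. All 35 libraries entered with 1 mean per tissue, and genes were tested (13934) if 1 or more tissues averaged 1 FPKM or higher. 65 transcripts with unreadable values were left out. A count test was planned for the case that counts were deposited and was not used. Simulated data took the mean and spread of each tested gene. In them, 99 of 100 genes changed by 1.5 and 100 of 100 changed by 2.5 on the log2 scale were recovered. The noise was independent and normal with 1 spread per gene, and only well expressed genes were changed. Outlying libraries, run effects and scarce changed genes were not simulated, so the recovery may not hold for them.

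The libraries are labelled as separate biological replicates. Same-numbered vB and MNP libraries deviated together (r = 0.117 to 0.426 for the 6 numbers), and their tables carry the same run names, so the numbers may pair the libraries. vB replicate 4 was closer to an MNP library of another number, and libraries 5 and 6 share a run name. The main fit is unpaired, so its standard errors, intervals and adjusted p leave any pairing out. A fit with the replicate number as a block is therefore given beside each named gene whose call it ended and beside counts it changed. Alternatives were the 12 libraries alone, a pseudocount of 0.1, no filter, quantile normalisation, transcripts under 200 bases left out, blocks by replicate or run, library weights, a test against a 1.5-fold change, replicates 1 to 3 or 4 to 6 alone, and libraries left out.

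The comparison and its 38 gene lists were chosen with earlier results of these data known. The genes named are the 12 called genes with the largest differences in each direction whose libraries do not overlap, the 3 leading called members of each list with others needed to describe it, and 24 ciliary genes from the study's text. Promoter sequences are from RefSeq (GRCm38.p6), and 9 of the 12 leading genes in each direction had an entry. Coordinates of genes span their transcripts in the deposited tables. Results on a few genes are not reported here.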

Additional observations from a re-analysis of the deposited data

Results flagged for a closer look

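In 40 of 366 groups examined (183 named genes in 6 vB or 6 MNP libraries), the most extreme library stood apart from the other 5 by Dixon's ratio. The ratio was taken on log2(FPKM + 1), while the values below are in FPKM. Chance gives about 1 in 20 for independent normal values, and genes measured in the same library are not independent. Of the 40, 22 were vB replicate 4, which was the lowest library for 19 genes and the highest for 3. Progenitor and Notch genes low in vB replicate 4 were Sox1 at 9.47 FPKM (others 32.9 to 60.8), Sox2 at 36.4 FPKM (others 102 to 162), Hes5 at 57.3 FPKM (others 111 to 127), Zic1 at 19.3 FPKM (others 48.6 to 80.2), Notch1 at 2.61 FPKM (others 15.3 to 33.4), Lfng at 17 FPKM (others 22.3 to 24.8), Nrarp at 47.4 FPKM (others 86.1 to 94.4), Dll1 at 8.08 FPKM (others 23.3 to 34.7) and Jag2 at 0.568 FPKM (others 3.48 to 4.49). Proneural, neuronal and regional factors low in vB replicate 4 were Olig2 at 5.55 FPKM (others 26.2 to 45.4), Elavl3 at 5.79 FPKM (others 45.5 to 109), Gsx1 at 2.97 FPKM (others 8.47 to 13), Nkx2-1 at 6.93 FPKM (others 39.4 to 102) and Vax1 at 0.483 FPKM (others 8.65 to 26.2). Signalling, guidance and centriolar genes low in vB replicate 4 were Id4 at 25.2 FPKM (others 98 to 158), Nog at 0.877 FPKM (others 6.1 to 8.28), Ntn1 at 7.98 FPKM (others 20.4 to 30.1), Wnt7b at 9.26 FPKM (others 46.8 to 70.3) and Pcm1 at 20.8 FPKM (others 31.6 to 40.2). In the same library Lztfl1 reached 19.9 FPKM (others 10.4 to 12.6), Tubb5 reached 2028 FPKM (others 1153 to 1316) and Vim reached 1604 FPKM (others 539 to 708). vB replicate 1 stood apart for Hand1, highest at 0.0301 FPKM (others listed at 0), Hand2, highest at 0.0705 FPKM (others 0 to 0.0221), and Myog, highest at 1.48 FPKM (others 0 to 0.339). vB replicate 5 stood apart for Cxcl14, highest at 3.85 FPKM (others 1.28 to 1.9). MNP replicate 2 stood apart for Ebf3, highest at 37.9 FPKM (others 28.9 to 31.9), Fabp5, lowest at 145 FPKM (others 201 to 242), Gad2, highest at 0.0876 FPKM (others 0 to 0.0179), and Wnt1, highest at 0.0163 FPKM (others listed at 0). MNP replicate 3 stood apart for Bbip1, highest at 12.9 FPKM (others 10.7 to 10.9), Ptbp1, lowest at 168 FPKM (others 233 to 245), and Trp63, lowest at 11.1 FPKM (others 13.2 to 14.5). MNP replicate 4 stood apart for Btg2, lowest at 4 FPKM (others 4.95 to 5.4), Neurod2, highest at 0.0208 FPKM (others listed at 0), Slc17a6, highest at 0.0367 FPKM (others 0 to 0.0116), and Slc32a1, highest at 0.064 FPKM (others listed at 0). MNP replicate 6 stood apart for Dll1, highest at 1.02 FPKM (others 0.576 to 0.701), Rab34, highest at 55.8 FPKM (others 49.1 to 50.7), and Vax1, highest at 0.09 FPKM (others listed at 0). Many of the MNP values are near 0.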

How the results depend on the processing

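The counts of genes higher (1052) and lower (811) stayed within 1.5 times of these values under 23 of 24 alternatives, and with a pseudocount of 0.1 they were 1438 and 1279. Leaving out each vB library in turn gave 988 to 1196 higher and 739 to 937 lower, and leaving out each MNP library 1044 to 1071 and 774 to 863. Quantile normalisation gave 990 and 845. With the replicate block the counts were 1047 and 786. Beyond En2, Col1a1, Col3a1, Crabp1 and Aldh1a1, the block changed the call of no gene named. Of 183 genes named and tested, 146 were called, 121 of them under every alternative, 26 were called under none, and 1 called gene changed direction, Aldh1a1 without vB replicates 1, 4 and 5 (-0.12). Calls of Col1a1, Col1a2, Col3a1, Crabp1, Ebf3, Foxj1, Fst, Irx3, Nog, Notch1, Sox6, Ttll7, Wnt7b and Zeb1 were lost in replicates 4 to 6 alone, and those of Aldh1a1, En2, Foxa2, Fst, Gli2, Hey1, Jag2 and Pou4f1 in replicates 1 to 3 alone. Spread among vB libraries and unknown depth per gene are limits of these calls, and the added 1 FPKM makes the differences of scarce transcripts smaller. The causes of these changes were not tested.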

Other observations

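The genes of this paragraph were chosen after their values were seen. H19, the imprinted neighbour of Igf2, measured 0.0554 to 1.58 FPKM in vB (median 0.353) and 7.25 to 25.6 in MNP (median 14.5) (-3.31 ± 0.24, adjusted p = 3.4e-13). Gpc3, a glypican that restrains growth, measured 10.5 to 148 FPKM in vB (median 53.1) and 349 to 439 in MNP (median 404) (-3.33 ± 0.39, adjusted p = 1.1e-08). Igfbp3, a binding protein of the Igfs, measured 1.11 to 8.83 FPKM in vB (median 3.67) and 24.4 to 63 in MNP (median 35.6) (-3.02 ± 0.25, adjusted p = 5.2e-12). Gpc3 was 100, 148 and 90 FPKM in vB replicates 1, 4 and 5 and at most 16.2 in replicates 2, 3 and 6. Ntf3, a neurotrophin, was lower in vB, at 0.133 to 2.75 FPKM in vB (median 0.782) and 12.7 to 18 in MNP (median 14.5) (-3.05 ± 0.22, adjusted p = 2.3e-13), with no overlap. The platelet-derived ligands Pdgfa (-2.25 ± 0.27, adjusted p = 1.8e-08) and Pdgfc (-2.77 ± 0.21, adjusted p = 8.7e-13) shared that direction with their receptor Pdgfra. Hmga2, a chromatin protein of growing embryonic tissue, was abundant in both tissues and lower in vB at 46.3 to 107 FPKM in vB (median 75.5) and 205 to 294 in MNP (median 261) (-1.75 ± 0.17, adjusted p = 2.2e-10).

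Cadherins, also chosen after their values were seen, divided between the tissues. Cdh2, N-cadherin, was at 42 to 95.7 FPKM in vB (median 66) and 20.6 to 34.2 in MNP (median 24.4) (1.34 ± 0.16, adjusted p = 3.4e-08), and Cdh4, R-cadherin, at 1.62 to 12.5 FPKM in vB (median 6.74) and 0.424 to 1.5 in MNP (median 0.848) (1.98 ± 0.26, adjusted p = 1.1e-07), both higher in vB with no overlap. Cdh3, P-cadherin of epithelia, was lower at 0.0108 to 3.3 FPKM in vB (median 0.241) and 6.57 to 13.2 in MNP (median 10.5) (-2.68 ± 0.28, adjusted p = 1.4e-09), with 3.3 and 2.79 FPKM in vB replicates 1 and 5. Vim, the intermediate filament often used to mark mesenchyme, was higher in vB, at 539 to 1604 FPKM in vB (median 582) and 105 to 238 in MNP (median 144) (2.16 ± 0.24, adjusted p = 3.1e-09). Sox11, a SoxC factor of newborn neurons and of crest mesenchyme, was at 52.6 to 242 FPKM in vB (median 136) and 84.5 to 124 in MNP (median 97.5) and was not called (0.33, 95% interval -0.16 to 0.83).

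Some MNP values divided along the same replicate numbers (2, 3 and 6 against 1, 4 and 5) as those of Col3a1, Gpc3 and Hbb-y in vB. Hey2, a Notch target, was 24.4, 15.2 and 14.8 FPKM in MNP replicates 2, 3 and 6 and 2.46, 1.22 and 1.61 in replicates 1, 4 and 5, against 0.963 to 4.38 FPKM (median 1.97) in vB, and its difference (-1.20 ± 0.52, adjusted p = 0.06) was not called with all libraries but was without vB replicate 4 (-1.36), MNP replicate 1 (-1.41), MNP replicate 4 (-1.54) or MNP replicate 5 (-1.49). Runx2, Myog, Actc1, Krt5 and Cyp26b1 had their 3 highest MNP values in the same replicates 2, 3 and 6. Hand1 went the other way, with 26.6, 39.2 and 30.3 FPKM in replicates 1, 4 and 5 and 10.6, 12.1 and 12.5 in replicates 2, 3 and 6. These genes were picked for the split and no test of it was made.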
